A study of Homo sapiens with 6 samples.

Results

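The genes described here are the matrix metalloproteinases (MMPs), the ADAMTS proteases (a disintegrin and metalloproteinase with thrombospondin motifs) and the tissue inhibitors of metalloproteinases (TIMPs). They were taken as the protein-coding genes with an MMP, ADAMTS or TIMP symbol in the GENCODE annotation, which gave 46 genes (23 MMPs, 19 ADAMTS genes and 4 TIMPs) out of 58884 genes in the deposited table, of which 19815 are protein-coding. RNA was sequenced from DLD1 cells, a colorectal cancer line with a PIK3CA helical domain mutation, either parental or carrying a K477A/R478A knock-in (KR-AA) in p85β, a regulatory subunit of PI3K. The knock-in changes a basic stretch that the study describes as the nuclear localization sequence of p85β, it was made with CRISPR/Cas9 and a targeting vector, and both groups share the DLD1 background and received no treatment. There were 3 parental and 3 p85β KR-AA libraries. The titles and genotypes give K477A/R478A for all 3 KR-AA libraries, whereas a further label reads K477A/R479A for library 2 and K477A/R480A for library 3. The labels do not say which knock-in clone gave which library or whether libraries came from separate cultures, so that a difference between the groups may include differences between clones, and p-values measure only the spread between these libraries, which may be technical.

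MMPs and ADAMTS proteases are zinc-dependent enzymes that are made as inactive proforms and cut proteins of the extracellular matrix. Most MMPs are secreted and some are anchored to the cell membrane, whereas ADAMTS proteases are secreted and bind to the matrix. TIMPs bind the active site of MMPs and block it. In the colon most of this activity comes from stromal and immune cells, and tumour cells can make some of the enzymes themselves.

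Parental libraries held 20301932 to 20873475 counts and p85β KR-AA libraries 20301396 to 26712816. Levels are given as normalized CPM, the counts of a gene relative to the total of its library, scaled by edgeR's trimmed mean of M-values (TMM). The TMM factors were 0.677 to 0.777 in parental and 1.35 to 1.41 in KR-AA libraries, so that scaling by library totals in its place moved the median log2 fold change of all tested genes by 0.92, from 0.32 to 1.24. Changes under library totals are therefore to be read against that shift. A gene was called up-regulated or down-regulated where it differed by 3-fold or more and edgeR's quasi-likelihood test gave it an adjusted p under 0.01. The markers of the line moved with the groups. Of 14 epithelial markers, 13 were above 1 CPM in every library. Of the 13 tested, 8 were down-regulated and 1, CDH1, was up-regulated, against 17.6% and 28.6% of all tested genes. The summed level of the 14 markers was 59100 to 81400 CPM in parental and 9460 to 11000 CPM in KR-AA libraries. By library totals 4 of the markers were down-regulated, against 6.06% of all tested genes. With gene length and GC content fitted as offsets, 3 were down-regulated, against 12.1% of the genes in that fit, and CDH1 was not called. KRT8 alone stood at 37400 and 4450 CPM, against 313 and 172 CPM for EPCAM and 97.3 and 344 CPM for CDH1. Of 15 mesenchymal markers 10 were tested, of which 6 were up-regulated (9 by library totals, 5 with offsets) and 1 was down-regulated. The summed level of the 15 markers was 28.0 to 30.9 CPM against 6330 to 7240 CPM. VIM (0.803 and 1770 CPM) and FN1 (4.28 and 4990 CPM) made up most of this sum in KR-AA libraries, COL3A1, DCN and LUM went from 0 counts to 3.74, 3.41 and 5.62 CPM, and COL1A2 was at or near 0 in both groups. Of 10 neuron markers 4 were tested and 3 were up-regulated, NEFL from 0 counts to 132 CPM, NEFM from 0 counts to 1.86 CPM and SYT1 from 0.567 to 5.82 CPM. The summed level of the 10 neuron markers went the other way, from 520 to 608 CPM in parental to 343 to 365 CPM in KR-AA libraries. In RNA from a whole culture, fewer cells of a kind and less RNA per cell cannot be told apart, and the part of these markers in the results below was not tested.

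Compared with the parental cells, p85β KR-AA cells had 7 up-regulated and 5 down-regulated genes among the 26 members that could be tested. The up-regulated genes were MMP1, MMP10, MMP16, ADAMTS1, ADAMTS6, ADAMTS9 and ADAMTS12, and the down-regulated genes were MMP11, MMP24, MMP28, ADAMTS2 and TIMP4. Among all 16059 genes tested, 28.6% were up-regulated and 17.6% were down-regulated, so that the members' counts were close to those of the whole transcriptome. The median log2 fold change of the 26 tested members was 0.22, and it was the same with the 4 members without a parental count placed at their lower bound. The other 20 members were too low to be tested, and 6 of them (MMP8, MMP12, MMP26, MMP27, ADAMTS5 and ADAMTS18) had no count in any library. The up-regulated members started from low levels. All but MMP1 had at most 3 counts in every parental library and at least 10 in every KR-AA library. This pattern was seen in 6 of all 46 members, against 3.12% of protein-coding genes. As those 6 genes and MMP1 passed the filter on low counts only through their KR-AA libraries, their number among tested genes is a description. MMP7, MMP25 and ADAMTS16 also passed the filter only with the help of their KR-AA libraries, and the same limit holds for them. They count among the members up-regulated by library totals.

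These 7 genes stayed up-regulated under every scaling and test tried that kept them. A filter asking for 10 counts in every library removed all 7 from the test. MMP10, MMP16, ADAMTS6 and ADAMTS12 had no parental count, so the size of their log2 fold changes depends on the prior count that edgeR adds. That their calls stayed is therefore a description and does not measure how firm they are. ADAMTS12 was called with the fold tested against 3, although its lower bound was 2.86-fold. MMP1, ADAMTS1 and ADAMTS9 had few parental counts. On the down-regulated side the calls depended on the scaling. Only MMP24 was called under library totals, and the counts there were 12 up-regulated and 1 down-regulated member, against 43.9% and 6.06% of all tested genes. The share of up-regulated genes among all called genes moved in the same way, from 61.9% with TMM to 87.9% with library totals and 52.1% when gene length and GC content were fitted as offsets. Among tested members the KR-AA libraries lay above all parental libraries for 10 genes and below them for 10, where this was so for 47.0% and 36.5% of all tested genes. The 10 above include the 7 up-regulated members and MMP25, which passed the filter only with the help of KR-AA libraries. By library totals 16 members were above and 7 below, where this was so for 64.3% and 21.8% of all tested genes.

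**Figure D1:**
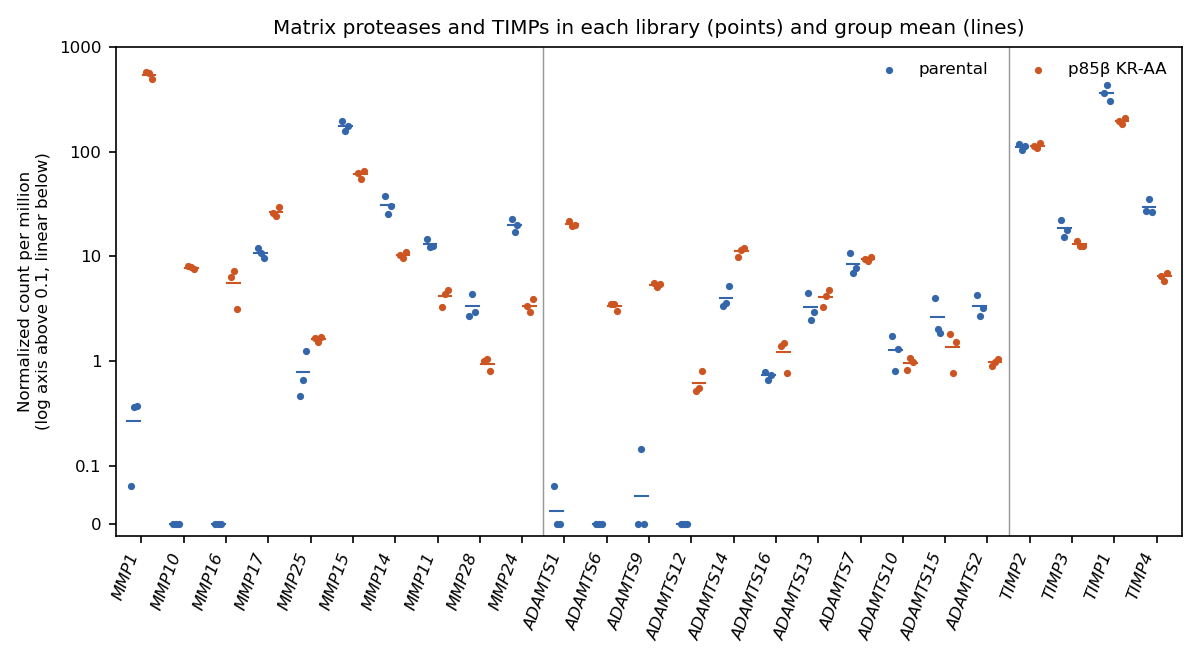
Normalized CPM (vertical axis, logarithmic above 0.1 and linear below) of 25 members in each of 3 parental (blue) and 3 p85β KR-AA (orange) libraries, with a line at each group mean, for MMPs, ADAMTS genes and TIMPs from left to right. MMP1, MMP10, MMP16 and ADAMTS1, ADAMTS6, ADAMTS9 and ADAMTS12 sit at or near 0 in parental libraries, whereas MMP15 and TIMP1 stand high in both groups and are lower in KR-AA libraries on this scale.

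MMP1 is the interstitial collagenase, which cuts the triple helix of fibrillar collagens. It had 1, 5 and 6 counts in parental libraries 1, 2 and 3, and 21287, 16060 and 13627 counts in KR-AA libraries 1, 2 and 3. Every KR-AA library was far above every parental library. The normalized level went from 0.267 ± 0.174 CPM to 545 ± 43.7 CPM (SD, n = 3 each). The log2 fold change of MMP1 was 10.97 ± 0.27 (SE, adjusted p = 2.54e-11 in edgeR's quasi-likelihood test). The ratio of the summed counts was 2060, with an exact 95% interval of 1180 to 3990 that covers counting error only. Per kilobase of transcript, MMP1 stood in place 22 of the 46 members in parental cells and in place 1 in KR-AA cells, where it was in place 192 among all genes. MMP1 was on a level with TIMP1 there, at 277 ± 22.2 and 255 ± 15.8 normalized CPM per kilobase (SD, n = 3), a gap within the sum of both SDs. These levels were not computed with length and GC offsets, under which the log2 fold change was 10.13 for MMP1 and 0.86 for TIMP1.

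MMP10, a stromelysin that cuts proteoglycans and can activate procollagenases, had no count in parental libraries. KR-AA libraries 1, 2 and 3 held 297, 226 and 207 counts of MMP10, or 7.84 ± 0.281 CPM (SD, n = 3). Against a floor of 3 counts in each parental library, MMP10 was at least 35.9-fold higher in KR-AA cells (adjusted p = 3.96e-08, edgeR). MMP11, another stromelysin that is secreted in active form after furin cleavage, went the other way. It had 223, 169 and 203 counts in parental and 121, 126 and 131 in KR-AA libraries, and the groups did not overlap. The MMP11 level fell from 13.2 ± 1.39 to 4.15 ± 0.764 CPM (SD, n = 3), with a log2 fold change of -1.67 ± 0.21 (SE, adjusted p = 7.89e-06, edgeR). That of MMP11 was -0.75 by library totals, -0.45 with length and GC offsets and -1.52 without KR-AA replicate 1, and none of these was past the fold threshold.

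Both gelatinases, which digest denatured and basement membrane collagens, were too low to be tested. MMP2 had 2, 5 and 10 counts in parental and 9, 7 and 2 counts in KR-AA libraries, and these overlapped. MMP9 had 5, 12 and 12 counts in parental and 3, 1 and 1 counts in KR-AA libraries, all of them lower. The ratio of MMP9 in KR-AA over parental cells was 0.0836, with an exact 95% counting interval of 0.0253 to 0.218. MMP9 entered the test where no filter was applied and in 4 of the 6 fits that left out a library, and was called down-regulated in these. In those 4 fits MMP9 passed the filter only through its parental libraries, where it is higher, so these calls are a description. The fit without a filter had infinite prior degrees of freedom, so no p is given. Of the other collagenases, MMP8 was at 0 in all libraries and MMP13 had 0, 1 and 1 counts against 6, 8 and 5. A count of 0 allows up to 0.185 to 0.218 CPM in parental and 0.0818 to 0.109 CPM in KR-AA libraries.

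MMP1 and MMP10 lie in a cluster of 9 MMP genes that spans 435 kb on chromosome 11 (chr11:102391239-102826461 in GRCh37, in the order MMP7, MMP20, MMP27, MMP8, MMP10, MMP1, MMP3, MMP12 and MMP13). The starts of MMP10 and MMP1 are 17.5 kb apart, and both genes are on the minus strand. With TMM they were the only members of the cluster that passed both thresholds. MMP7, the matrilysin of glandular epithelia, had 2, 5 and 2 counts in parental and 24, 10 and 13 in KR-AA libraries. Its normalized levels overlapped between the groups, at 0.207 ± 0.136 and 0.492 ± 0.154 CPM (SD, n = 3), and its log2 fold change was 1.29 ± 0.56 (SE, adjusted p = 0.0478, edgeR). By library totals the MMP7 levels did not overlap and MMP7 was called up-regulated, with a log2 fold change of 2.2. The neighbours MMP8 and MMP27 on one side of MMP10 and MMP12 on the far side of MMP3 were at 0 in all 6 libraries, and MMP3 and MMP20 had at most 2 counts in any library. WTAPP1, a pseudogene on the opposite strand that overlaps MMP1, had a mean of 2.0 counts in both groups. Of the genes that flank the cluster before MMP7, YAP1, BIRC3 and BIRC2 were up-regulated, with log2 fold changes of 2.07, 3.04 and 3.44, and TMEM123 had 0.90. None of these 4 genes passed 3-fold upward with length and GC offsets, at -0.01 for YAP1, 0.98 for BIRC3, 1.42 for BIRC2 and -0.82 for TMEM123. Beyond MMP13, DCUN1D5 had a log2 fold change of -1.24 and DYNC2H1, up-regulated, had 6.02, or -4.47 and 2.83 with offsets.

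**Figure D2:**
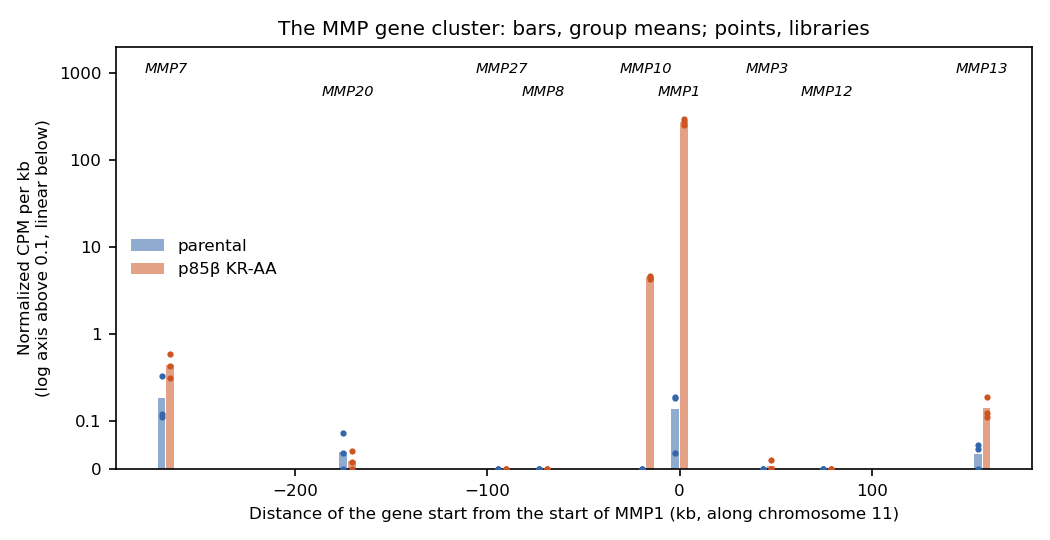
Normalized CPM per kilobase (vertical axis, logarithmic above 0.1 and linear below) of the 9 clustered MMP genes against the distance of each gene start from that of MMP1 (horizontal axis, kb), with bars at the means of 3 parental (blue) and 3 p85β KR-AA (orange) libraries and a point for each library. Only MMP1, at 277 in KR-AA cells, and MMP10, at 4.46, rise above 1, and the other 7 genes stay below 1.

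Promoter sequences from RefSeq (GRCh38.p14) were found for 27 of the 46 members, with no entry for MMP1. The 150 bases before the start are shown for the pair of cluster genes with a measured level and an entry, MMP10 and MMP7, and for MMP24 and TIMP4, the tested members with the lowest fold changes under TMM. Capitals mark matches to TGAGTCA or TGACTCA, which are reverse complements of each other and are bound by AP-1, or to TATAAA, the TATA box letters, read on the strand of the gene. All lie 5′ to 3′ on the strand of their gene, at chr11:102780629-102780778 (minus) for MMP10, chr11:102530748-102530897 (minus) for MMP7, chr20:35226540-35226689 (plus) for MMP24 and chr3:12158913-12159062 (minus) for TIMP4.
MMP10: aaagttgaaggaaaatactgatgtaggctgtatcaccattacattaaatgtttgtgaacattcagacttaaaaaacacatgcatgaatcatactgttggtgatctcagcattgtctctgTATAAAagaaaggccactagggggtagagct
MMP7: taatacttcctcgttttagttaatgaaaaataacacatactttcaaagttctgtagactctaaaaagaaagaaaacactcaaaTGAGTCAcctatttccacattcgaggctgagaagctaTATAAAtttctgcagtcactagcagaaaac
MMP24: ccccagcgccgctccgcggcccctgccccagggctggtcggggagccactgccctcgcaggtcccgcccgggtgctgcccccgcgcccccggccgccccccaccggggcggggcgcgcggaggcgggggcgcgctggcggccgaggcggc
TIMP4: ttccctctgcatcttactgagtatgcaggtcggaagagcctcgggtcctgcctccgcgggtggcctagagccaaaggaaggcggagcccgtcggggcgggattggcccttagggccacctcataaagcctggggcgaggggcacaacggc
MMP7 was the only one of these 27 members with the AP-1 letters within 250 bases before the start, which 4.2% of all 35116 promoters hold. TATAAA was found in 6 members, of which 4 were among the 5 cluster genes with an entry, against 6.8% of all promoters. MMP8 and MMP20, which hold TATAAA too, were at 0 or near it in all libraries. The upstream 250 bases were 32.8% to 41.6% G or C in the 5 cluster genes and 77.6% in MMP24, where the median of all promoters was 58.0%. These matches describe the letters only, and the motifs were chosen with the levels known.

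The membrane MMPs sit at the cell surface. MMP15 was the most abundant MMP of the parental cells. It had 2944, 2180 and 2854 counts in parental and 2280, 1561 and 1809 in KR-AA libraries. Its level went from 177 ± 18.4 to 60.8 ± 5.9 CPM (SD, n = 3) with no overlap, but its log2 fold change of -1.54 ± 0.14 (SE, adjusted p = 3.44e-07, edgeR) fell just short of the 3-fold threshold of 1.58. MMP14, the surface activator of pro-MMP2, had 563, 347 and 490 counts in parental and 379, 278 and 301 counts in KR-AA libraries. Here too the groups did not overlap, and 31.0 ± 6.1 became 10.3 ± 0.644 CPM (SD, n = 3), with a log2 fold change of -1.58 ± 0.18 (SE, adjusted p = 3.51e-06, edgeR). Before rounding MMP14 also fell just short of the threshold and was not called. Both MMP14 and MMP15 were called down-regulated by DESeq2, and their log2 fold changes by library totals were -0.67 and -0.62.

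MMP24, a membrane MMP best known from the nervous system, was the tested member with the lowest fold change under TMM. It had 339.86, 235.16 and 320.16 estimated counts in parental and 122.18, 83.83 and 108.74 in KR-AA libraries. The level fell from 19.8 ± 2.73 to 3.40 ± 0.525 CPM (SD, n = 3), with a log2 fold change of -2.54 ± 0.20 (SE, adjusted p = 1.32e-07, edgeR), -1.62 by library totals and -2.15 with length and GC offsets. The exons of MMP24 overlap those of MMP24OS on the opposite strand, which averaged 1275 counts in parental and 729 in KR-AA libraries, and as the library kit does not mark strand, reads of this pair cannot be told apart where they overlap. MMP16, a membrane MMP of mesenchymal and neural tissues, had no parental count. With 232, 209 and 87 counts in KR-AA libraries 1, 2 and 3, or 5.59 ± 2.15 CPM (SD, n = 3), MMP16 was at least 25.6-fold higher in KR-AA cells (adjusted p = 1.43e-06, edgeR). KR-AA library 3 was the lowest of these by a wide margin.

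MMP17 and MMP25 are held at the membrane by a glycolipid anchor. MMP17 had 182, 149 and 156 counts in parental and 955, 701 and 821 in KR-AA libraries. All KR-AA values were higher, at 26.8 ± 2.83 against 10.9 ± 1.23 CPM (SD, n = 3), and the log2 fold change of MMP17 was 1.3 ± 0.17 (SE, adjusted p = 1.20e-05, edgeR), 2.23 by library totals and 2.93 with length and GC offsets. It was past the fold threshold under both of these. MMP25 had 7.07, 9.0 and 20.5 estimated counts in parental and 61.49, 44.05 and 46.31 in KR-AA libraries, again without overlap. The MMP25 log2 fold change was 1.03 ± 0.37 (SE, adjusted p = 0.0212, edgeR), which did not pass, and MMP25-AS1 on the opposite strand averaged 34.5 and 124 counts. By library totals and with offsets the MMP25 log2 fold change was 1.94 and 2.08, and MMP25 was called up-regulated under both. MMP23B, the remaining membrane member, was not tested, at 7.66 and 5.06 mean counts, and it shares sequence with the pseudogene MMP23A. Of the other secreted MMPs only MMP28 (epilysin, found in resting epithelia) was tested. It had 41, 60 and 48 counts in parental and 37, 30 and 22 in KR-AA libraries, and its log2 fold change was -1.80 ± 0.29 (SE, adjusted p = 9.08e-05, edgeR), but -0.87 by library totals and -0.50 with offsets, where it was not called.

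Among ADAMTS genes, the proteoglycanases cut aggrecan and versican. ADAMTS1 had 1, 0 and 0 counts in parental and 796, 564 and 553 counts in KR-AA libraries. It was thus near absent from parental cells and stood at 20.5 ± 1.08 CPM (SD, n = 3) in KR-AA cells. The ratio of ADAMTS1 was 927 with a counting interval of 166 to 36600 (adjusted p = 2.91e-09, edgeR). It rests on 1 parental count, and the log2 fold change of 9.53 ± 0.42 (SE) became 11.97 without parental replicate 1. ADAMTS9 had 0, 2 and 0 counts in parental and 206, 146 and 149 in KR-AA libraries, a ratio of 121 with an interval of 33.4 to 1010 (adjusted p = 1.20e-07, edgeR). The ADAMTS9 log2 fold change of 6.75 ± 0.53 (SE) became 10.06 without parental replicate 2, the only parental library with counts of it. ADAMTS15, in contrast, had 60, 28 and 30 counts in parental and 66, 22 and 42 in KR-AA libraries. All KR-AA levels were lower after TMM scaling but overlapped by library totals, and its log2 fold change of -0.93 ± 0.38 (SE, adjusted p = 0.0389, edgeR) did not pass. The other proteoglycanases ADAMTS4, ADAMTS5, ADAMTS8 and ADAMTS20 were not tested. ADAMTS5, which lies next to ADAMTS1 on chromosome 21, had no count in any library.

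ADAMTS6, which acts on microfibrils, had no parental count and 130, 100 and 82 counts in KR-AA libraries. At 3.34 ± 0.305 CPM (SD, n = 3), ADAMTS6 was at least 15.3-fold higher in KR-AA cells (adjusted p = 5.18e-07, edgeR). Its close relative ADAMTS10 had 26, 11 and 21 counts in parental and 30, 31 and 27 in KR-AA libraries, which overlapped after scaling. The log2 fold change of ADAMTS10 was -0.42 ± 0.35 (SE, adjusted p = 0.283, edgeR), and it turned to 0.49 by library totals and 0.35 with offsets. ADAMTS12, which cuts cartilage oligomeric matrix protein, was the lowest of the up-regulated members, with no parental count and 19, 16 and 22 counts in KR-AA libraries. It was at least 2.86-fold higher (adjusted p = 0.000171, edgeR), a bound that lies under 3 because the KR-AA level was only 0.626 ± 0.154 CPM (SD, n = 3). ADAMTS7, which cuts the same protein, had 164, 96 and 126 counts in parental and 346.96, 259 and 273 in KR-AA libraries. Its levels overlapped on the normalized scale, and its log2 fold change was 0.15 ± 0.21 (SE, adjusted p = 0.519, edgeR), with -0.01 when parental replicate 2 was left out.

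The procollagen N-proteinases trim the amino end of fibrillar procollagens. ADAMTS2 had 64, 37 and 52 counts in parental and 33, 28 and 29 in KR-AA libraries. Its level was lower in all KR-AA libraries, with a log2 fold change of -1.79 ± 0.28 (SE, adjusted p = 6.73e-05, edgeR), -0.87 by library totals and -2.25 with offsets. ADAMTS14 had 51, 49 and 84 counts in parental and 364, 332 and 328 in KR-AA libraries. Higher in all KR-AA libraries, ADAMTS14 had a log2 fold change of 1.45 ± 0.22 (SE, adjusted p = 4.75e-05, edgeR), just under the fold threshold, and of 2.37 by library totals. ADAMTS3 had at most 2 counts in any library. ADAMTS13, the protease of von Willebrand factor, had 68, 34 and 48 counts in parental and 120, 120 and 132 in KR-AA libraries, and ADAMTS16 had 12, 9 and 12 counts in parental and 51, 43 and 21 in KR-AA libraries. Neither passed, with log2 fold changes of 0.29 ± 0.27 for ADAMTS13 and 0.74 ± 0.37 for ADAMTS16 (SE, adjusted p = 0.327 and 0.0855, edgeR), and the normalized levels of both overlapped between the groups. By library totals neither overlapped, with log2 fold changes of 1.21 for ADAMTS13 and 1.66 for ADAMTS16, which was then called up-regulated.

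All 4 TIMPs were measured in every library. TIMP1 was by far the most abundant, with 5519, 5915 and 4902 counts in parental and 7271, 5270 and 5698 in KR-AA libraries. On the normalized scale all KR-AA libraries were lower, at 196 ± 12.2 against 367 ± 64.2 CPM (SD, n = 3), and the log2 fold change of TIMP1 was -0.90 ± 0.14 (SE, adjusted p = 7.94e-05, edgeR), which turned to 0.04 by library totals and 0.86 with length and GC offsets. TIMP2, which also takes part in the activation of pro-MMP2 by MMP14, had 1784, 1413 and 1853 counts in parental and 4144, 3113 and 3357 in KR-AA libraries. Its normalized levels overlapped, at 112 ± 8.06 and 115 ± 7.1 CPM (SD, n = 3), with a log2 fold change of 0.03 ± 0.12 (SE, adjusted p = 0.806, edgeR), 0.95 by library totals and -0.04 with offsets.

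TIMP3, which binds to the matrix and also blocks ADAM and ADAMTS proteases, had 335, 211 and 289 counts in parental and 517, 360 and 346 in KR-AA libraries. Its log2 fold change was -0.50 ± 0.18 (SE, adjusted p = 0.0209, edgeR), 0.42 by library totals and -1.64 with offsets, so that both its direction and its call depended on the scaling. TIMP4, whose expression is restricted to a few tissues, was the only TIMP called. It had 405, 482 and 428 counts in parental and 240, 167 and 191 in KR-AA libraries, with no overlap either with TMM or by library totals. The level of TIMP4 fell from 29.5 ± 4.88 to 6.44 ± 0.58 CPM (SD, n = 3), with a log2 fold change of -2.19 ± 0.18 (SE, adjusted p = 1.86e-07, edgeR), -1.26 by library totals and -1.25 with offsets, both short of 3-fold. SYN2, on the opposite strand and with overlapping exons, averaged 44.7 and 41.3 counts.

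**Figure D3:**
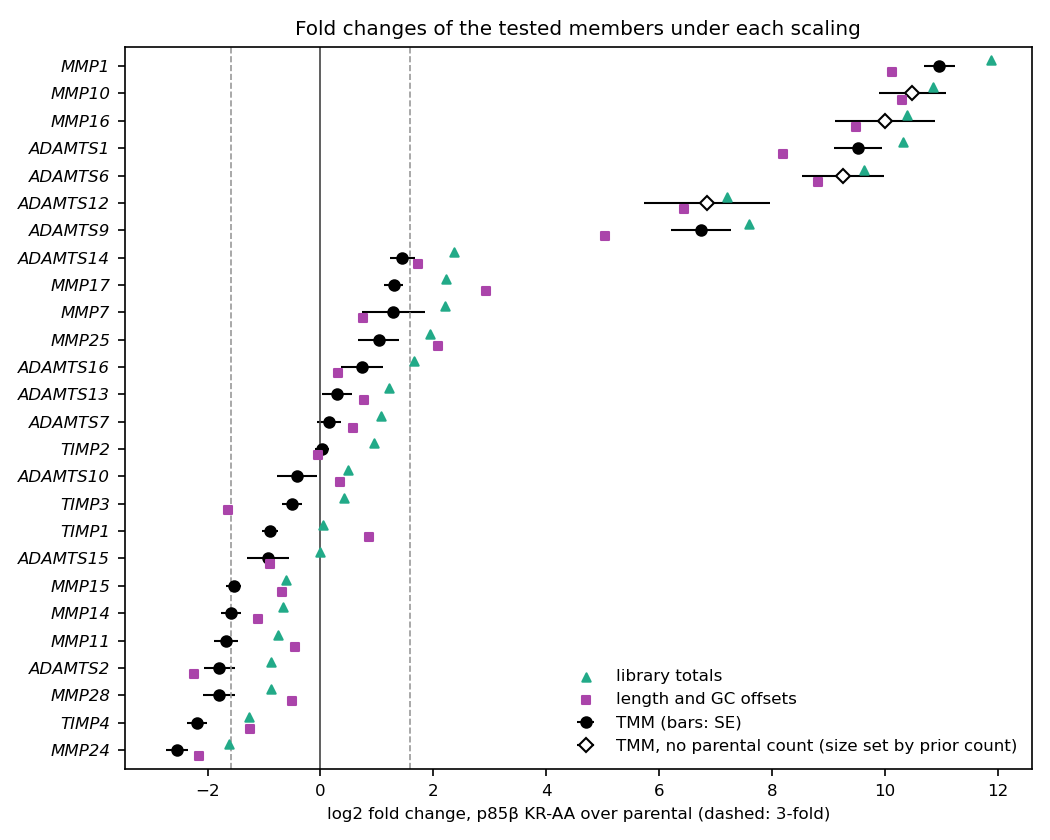
Log2 fold changes (horizontal axis, p85β KR-AA over parental) of the 26 tested members with TMM (black, bars are SE, open diamonds for members without a parental count, whose size depends on the prior count), library totals (green triangles) and length and GC offsets (purple squares), with dashed lines at 3-fold. The 7 uppermost genes stay beyond the line under each scaling, MMP24 is the lowest under TMM and library totals, and TIMP1, TIMP2, TIMP3 and ADAMTS10 lie on different sides of 0 depending on the scaling.

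Summed per kilobase, the makeup of the enzyme pool differed between the groups. All MMPs together stood at 63.3 to 76.8 normalized CPM per kilobase in parental and 293 to 333 in KR-AA libraries, a ratio of 4.53, or 8.58 by library totals. MMP15 held 61.7% to 63.3% of the MMP sum in parental libraries, whereas MMP1 held 0.0439% to 0.292%. In KR-AA libraries MMP1 held 86.1% to 88.9% and MMP15 4.19% to 5.54%. The secreted MMPs other than MMP1 summed to 7.41 to 8.22 in parental and 7.35 to 7.5 in KR-AA libraries, and this sum was 1.79 times as high in KR-AA cells by library totals. The membrane MMPs summed to 54.9 to 68.7 against 28.0 to 33.4, a ratio of 0.499 that became 0.944 by library totals. ADAMTS genes summed to 3.6 to 5.68 against 10.7 to 11.1, a ratio of 2.39, or 4.51 by library totals. ADAMTS1 made up 35.2% to 38.8% of that sum in KR-AA libraries and at most 0.226% in parental libraries.

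The TIMP sum was 451 to 621 normalized CPM per kilobase in parental and 276 to 312 in KR-AA libraries, 0.55 times as high, or 1.05 times as high by library totals. TIMP1 made up 86.5% to 90.2% of it in every library. Within a library, the ratio of summed TIMPs to summed secreted MMPs is the same with TMM and with library totals. It was not computed with length and GC offsets, under which TIMP1 and MMP1 had log2 fold changes of 0.86 and 10.13. It was 66.5, 73.9 and 59.3 in parental libraries 1, 2 and 3 and 0.985, 0.947 and 1.20 in KR-AA libraries 1, 2 and 3. The means, 66.6 ± 7.3 and 1.04 ± 0.136 (SD, n = 3), were 63.8-fold apart without overlap, with a two-sided exact permutation p of 0.1 (0.109 adjusted over 12 such sums, ratios and shares), where 0.1 is the smallest p that 3 against 3 libraries allow. Without MMP1 the ratio was 67.7 ± 7.39 against 39.8 ± 2.76 (SD, n = 3), which is 1.7-fold apart. These are ratios of transcripts and not of active enzyme to inhibitor.

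**Figure D4:**
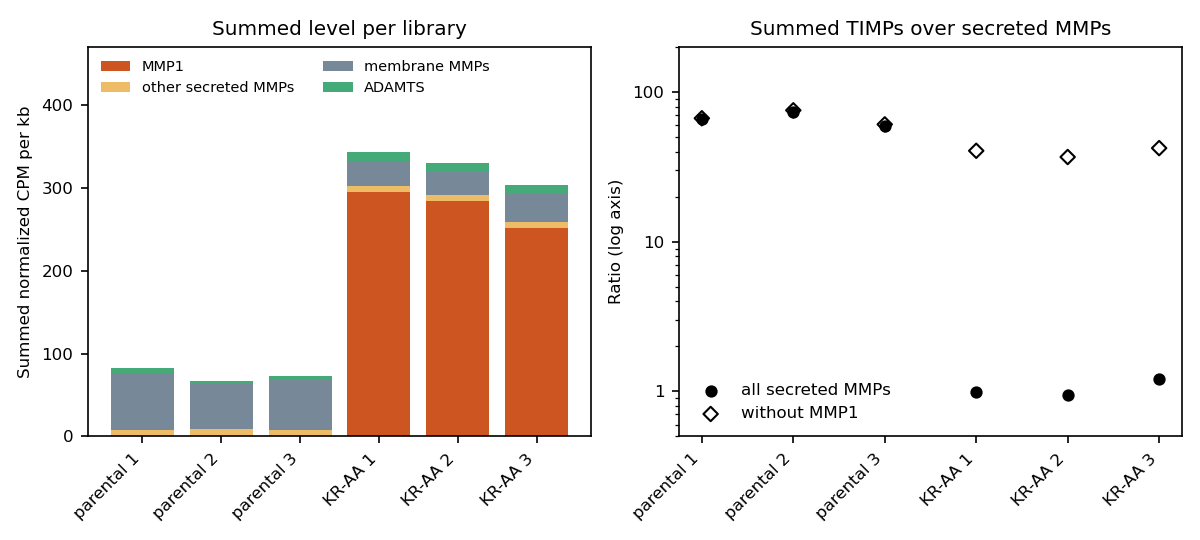
Left, summed normalized CPM per kilobase in each library (stacked bars, linear axis from 0) of MMP1, the other secreted MMPs, the membrane MMPs and the ADAMTS genes. Right, the ratio of summed TIMPs to summed secreted MMPs in each library (logarithmic axis) with MMP1 (filled) and without it (open), which is 59.3 to 73.9 in parental and 0.947 to 1.20 in KR-AA libraries with MMP1, and 60.8 to 75.5 and 36.8 to 42.2 without it.

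Length moved with the contrast. In the 4959 tested genes of at least 4000 bases the median log2 fold change was 1.65 and the up-regulated share was 50.9%. Of the 15 tested members of that length 5 were up-regulated, and of the 11 shorter ones 2, MMP1 and MMP10. The share among all shorter genes was not computed, and 28.6% of tested genes of any length were up-regulated. With length and GC content as offsets, all 7 up-regulated members were still called, MMP17, MMP25 and ADAMTS14 were added, and the down-regulated members were MMP24, ADAMTS2 and TIMP3. Among all 15902 genes in that fit, 13.1% were up-regulated and 12.1% down-regulated.

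Genes that activate, inhibit or regulate these enzymes were read as lists, against the same 28.6% up-regulated and 17.6% down-regulated genes of the whole table. Of 7 tested plasminogen activation genes, 3 were up-regulated and 1 was down-regulated. SERPINB2, an inhibitor of plasminogen activators, had 0, 2 and 1 counts in parental and 14657, 11210 and 9327 in KR-AA libraries. SERPINE2, an inhibitor of thrombin and plasminogen activators, stood at 21.4 and 867 CPM, and PLAT, the tissue plasminogen activator, at 11.3 and 207 CPM, both higher in all KR-AA libraries. Of 7 tested genes for the activation, inhibition and uptake of pro-MMPs, 3 were up-regulated and none was down-regulated. These were LRP1, the receptor that clears proteases, at 22 and 173 CPM, the convertase PCSK5 at 2.50 and 13.6 CPM, and the membrane MMP inhibitor RECK at 1.43 and 5.13 CPM. With length and GC offsets only LRP1 was still called among these, and the log2 fold change went from 2.44 to 0.50 for PCSK5 and from 1.83 to -0.06 for RECK. Without being called, BSG (2290 and 815 CPM), FURIN (247 and 170 CPM) and PCSK7 (86.2 and 34.8 CPM) were lower in all KR-AA libraries on the normalized scale, and PCSK6 was higher. By library totals FURIN and PCSK7 overlapped between the groups. The log2 fold changes of BSG, FURIN, PCSK7 and PCSK6 were then -0.56, 0.38, -0.39 and 1.26. Their log2 fold changes with offsets were -0.03, 0.02, -2.82 and 0.33. The summed level of the list was 2540 to 2850 CPM in parental and 1180 to 1370 CPM in KR-AA libraries on the normalized scale. Most of this sum was BSG, and it mixes genes for activation, inhibition and uptake.

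Of 13 tested ADAM and ADAMTS-like genes, 9 were up-regulated and none was down-regulated, with ADAM9 (32.7 and 144 CPM), ADAM19 (11.3 and 90.3 CPM) and ADAM17 (13 and 52.9 CPM) as the most abundant of the called genes. With offsets ADAM19 was still called, whereas the log2 fold change went from 2.14 to 0.11 for ADAM9 and from 2.02 to -0.06 for ADAM17. Of 7 tested membrane serine proteases and Kunitz inhibitors, 2 were down-regulated and none was up-regulated. SPINT2, an inhibitor of matriptase and prostasin, fell from 2300 to 385 CPM, and PRSS8, which encodes prostasin, from 205 to 59.4 CPM. SPINT2 was also called by library totals and with offsets, and PRSS8 under neither, with log2 fold changes of -1.79, -0.86 and -0.24 with TMM, library totals and offsets. Of 12 tested cathepsins and cystatins, 3 were up-regulated and 4 were down-regulated, among them the lysosomal protease CTSL (104 and 702 CPM) on one side and its inhibitor CST3 (464 and 123 CPM) and the protease CTSH (52.7 and 15.8 CPM) on the other. By library totals neither CST3 nor CTSH was called, and CTSH was not called with offsets.

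Among 15 AP-1, ETS and RUNX factors, families known to bind MMP promoters, 3 were up-regulated and 1 was down-regulated. The up-regulated ETS1 stood at 2.26 and 28.7 CPM and ETV1 at 0.523 and 28.0 CPM, whereas the AP-1 subunit JUND fell from 229 to 43.0 CPM, which was called neither by library totals nor with offsets (log2 fold changes of -1.48 and -0.47). Of 12 tested ADAMTS substrates, 9 were up-regulated and 1 was down-regulated. The fibrillins FBN2, at 0 counts in all parental libraries and 224 CPM in KR-AA cells, and FBN1, at 0.118 and 89.9 CPM, were the most abundant of the called genes, with LTBP1, a latent TGF-β binding protein, at 6.04 and 19.1 CPM, which was not called with offsets (log2 fold change of 0.47). By library totals, the calls in these lists were 4, 3, 11, 0, 3, 6 and 11 up-regulated in the order given and 0, 0, 0, 1, 2, 0 and 0 down-regulated. With offsets they were 3, 1, 7, 0, 2, 2 and 8 up-regulated and 0, 1, 0, 1, 2, 0 and 1 down-regulated. Among all genes in these fits, 43.9% were up-regulated and 6.06% down-regulated by library totals, and 13.1% and 12.1% with offsets.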

How the data were processed

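RNA of 3 parental and 3 p85β KR-AA DLD1 libraries was prepared with an Illumina TruSeq RNA kit and sequenced in pairs. The authors trimmed reads with SeqPrep and Sickle. The submitters' processing notes name HISAT2 2.1.0, RSEM 1.3.1, DESeq2 1.24.0 and the build hg18, while the annotation is not given in the sources used here. The authors deposited expected counts per Ensembl gene (estimated counts, not normalized) with a gene length, and these were rounded to whole numbers for the tests, where the design had assumed whole counts.

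Symbols and GRCh37 positions were taken from GENCODE release 44 and matched 56745 of the 58884 genes. MMP23A, a pseudogene, was left out. Groups were compared by the quasi-likelihood F test of edgeR 4.0.16 (R 4.3.3) without covariates. Low genes were dropped by filterByExpr (minimum count 10, minimum total 15), libraries were scaled by TMM, and p-values were adjusted by Benjamini-Hochberg over 16059 genes. The script was tested on simulated data. SE were derived from the F statistic. Where parental libraries had no count, a fold is a lower bound against 3 counts per library. Intervals and floors cover counting error only. Levels per kilobase used the deposited lengths, and gene models of different tools could change them. Promoters came from RefSeq.

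Values in every library are given for members with a mean of at least 1 CPM in either group or past both thresholds, and for all TIMPs. MMP2, MMP7, MMP9 and MMP13 were named after their values were seen. From each list, up to 3 genes past both thresholds with the highest mean level were named. The members and lists were chosen with earlier results of these data known. Alternatives were DESeq2 1.42.0, other size factors, library totals, other filters, a replicate block, length and GC offsets, other thresholds and each library left out. Replicates differed by more than sampling noise (chi-square per degree of freedom of 4.29 to 39.1). Protein sequences were not used here.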

Additional observations from a re-analysis of the deposited data

How the results depend on the processing

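The 7 up-regulated members were the same with DESeq2, size factors by relative log expression (RLE), no filter, a fold tested against 3 and, with 10 called, length and GC offsets. For the 4 of them without a parental count this is a description only. Library totals gave 12 up-regulated and 1 down-regulated member, a filter of 10 counts in every library 1 (ADAMTS14) up-regulated among 16 tested, and an adjusted p under 0.05 without a fold threshold 11 and 10. Down-regulated members numbered 7 with DESeq2 or RLE, 3 with offsets and 2 (MMP24 and TIMP4) with the fold tested against 3. Leaving out each library in turn gave 7 to 8 up-regulated and 5 to 8 down-regulated members, the latter without KR-AA replicate 3, where MMP9, MMP14 and MMP15 were added. The members' median log2 fold change of 0.22 was 0.10 with DESeq2 and with RLE, 1.14 by library totals, 0.53 with no filter, 0.66 with offsets, -0.72 with 10 counts in every library, where up-regulated members drop out, and -0.01 (without parental replicate 2) to 0.35 with a library left out. In the lists, 30 up-regulated and 9 down-regulated genes became 15 up-regulated with 10 counts in every library, and 3, 4, 5 and 23 down-regulated by library totals, with the fold tested against 3, with offsets and with the adjusted p alone. Among all genes, 4597 and 2825 calls became 7052 and 973 by library totals, 2974 and 1779 with the fold tested against 3, 7373 and 5738 with the adjusted p alone, and 2087 up-regulated with offsets and 2898 with 10 counts in every library.

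Of 341 values for 25 members, 302 kept direction and call, 19 gained the call, 9 lost it and 11 changed direction. TIMP2 was at -0.08 with DESeq2 and RLE, -0.04 with offsets and between -0.05 and 0.08 with a library left out, TIMP1 at 0.04 by library totals and 0.86 with offsets, TIMP3 at 0.42 by library totals, ADAMTS10 at 0.49 and 0.35 under these, and ADAMTS7 between -0.01 and 0.35 with a library left out. The cause was not tested. Replicate numbers did not pair the libraries (correlations of deviations of -0.136, 0.119 and -0.045 for numbers 1, 2 and 3), and with the replicate block the members gave 7 up-regulated and 5 down-regulated genes and a median of 0.24, also with robust moderation. With the block, the prior degrees of freedom were infinite, so its p-values are not given. At 3 counts per library, members under 0.218 CPM in parental and 0.109 CPM in KR-AA libraries cannot be told from absence.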
